A study of Homo sapiens with 8 samples.

Results

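The genes described here encode the RNA polymerases I, II and III, the general transcription factors that bring them to promoters, the small nuclear RNA activating protein complex (SNAPc) and Mediator. They were chosen by symbol alone, as every listed gene whose symbol starts with POLR1, POLR2, POLR3, GTF2, GTF3, SNAPC, or with TAF or MED followed by a digit. The rule uses no measured value, although it was set with earlier results of these data known. The rule found 115 of 18388 genes, and 107 of them were among the 10138 genes with enough reads to be tested. The 8 genes below that level were TAF1A, TAF1L, TAF4B, TAF6L, TAF7L, SNAPC4, the antisense gene MED14OS and 1 of 2 identifiers named POLR2J2. The symbols match what they were taken for, except that 5 genes are near-identical copies or antisense genes (GTF2H2C, POLR2J2 under both identifiers, POLR2J3 and MED14OS) and were kept apart from the complexes. GTF2IRD2B, a near-identical copy of GTF2IRD2, stayed within the TFII-I family. GTF2I and its relatives carry a general factor name but act as gene-specific factors, and POLR2M is a Pol II-associated protein rather than a core subunit.

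U-2OS Tet-ON cells, an osteosarcoma line that carries the tetracycline-regulated transactivator, received a control siRNA (siControl) or a pool of siRNAs against CGGBP1 (siCGGBP1) at 50 nM for 72 h. CGGBP1 is a protein that binds CGG triplet repeats in DNA. 4-thiouridine (4sU) was given at 75 µM for the last 60 min, and the titles of all libraries also name DMSO. Each group holds 3 replicates, and single siControl libraries with 0 and 200 µM 4sU served for background and dose. In SLAM-Seq, alkylation turns the 4sU of newly made RNA into T-to-C conversions in the reads, from which the authors' GRAND-SLAM pipeline estimated the share of new RNA of each gene in each library.

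RNA polymerase I makes the large ribosomal RNA precursor, RNA polymerase II makes messenger RNA and most small nuclear RNA, and RNA polymerase III makes transfer RNA, 5S ribosomal RNA and U6 RNA. The enzymes share small subunits, among them POLR2E, POLR2F, POLR2H, POLR2K and POLR2L, while each has its own catalytic pair and its own factors. At Pol II promoters TFIID, built from TBP and its associated factors (TAFs), TFIIA, TFIIB, TFIIE, TFIIF and TFIIH assemble with the polymerase, and Mediator links them to activators. SL1 serves Pol I promoters, and TFIIIA and TFIIIC are among the factors that act at Pol III genes. SNAPc binds the proximal element of small nuclear RNA genes, where it serves Pol II and Pol III alike.

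Between 10127519 and 14221516 reads were counted in the 6 libraries, and the genes of these complexes took 0.684% to 0.731% of them. CGGBP1 itself averaged 1076.9 ± 178 normalised reads in the control libraries and 230.1 ± 123.1 after its knockdown (SD, n = 3; log2 fold change -2.22 ± 0.39 SE, edgeR adjusted p = 0.0137). Of the osteoblast lineage markers, SPARC and COL1A1 were high and rose in siCGGBP1 (log2 fold changes 1.26 and 1.31, edgeR adjusted p = 0.00672 and 0.00353), RUNX2 was detected, and ALPL, SP7 and BGLAP stayed at or under 45.3 normalised reads in every library. The blood markers CD3E and PTPRC were at or near 0, with 0 reads and at most 7.93. Of the epithelial markers, CDH1 had 0 reads, whereas KRT8 was present at 1373 to 2609 normalised reads and EPCAM at 53.4 to 152. The 2 libraries numbered 3 stood apart in new RNA: the ratio was listed at 0 for 57.4% and 59.8% of the tested genes there, against 22.5% to 31.9% in the other 4 libraries. Tests of new RNA in POLR2L and SNAPC1 are given with and without both libraries numbered 3. For POLR2F they are given with and without siCGGBP1 replicate 3, and other new RNA values are given by library.

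The promoters of 3 genes are printed first, because CGGBP1 binds CGG repeats and these genes carry results in total RNA or the longest repeat. SNAPC1 is the gene that passed the test in total RNA, GTF3A had the next lowest fold change in total RNA, and POLR1D had the longest run of CGG among the genes described. Each sequence is the RefSeq window of 250 bases before to 50 after the gene start in GRCh38.p14, 5′ to 3′ on the gene's strand, with every uninterrupted run of at least 2 CGG or CCG triplets in capitals.
SNAPC1 (chr14:61762170-61762469, plus strand): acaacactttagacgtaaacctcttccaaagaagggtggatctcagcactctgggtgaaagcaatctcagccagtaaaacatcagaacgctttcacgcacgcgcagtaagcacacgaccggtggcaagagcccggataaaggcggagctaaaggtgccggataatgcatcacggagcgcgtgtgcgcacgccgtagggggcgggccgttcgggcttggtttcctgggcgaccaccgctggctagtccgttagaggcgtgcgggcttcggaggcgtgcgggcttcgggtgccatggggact
GTF3A (chr13:27424369-27424668, plus strand): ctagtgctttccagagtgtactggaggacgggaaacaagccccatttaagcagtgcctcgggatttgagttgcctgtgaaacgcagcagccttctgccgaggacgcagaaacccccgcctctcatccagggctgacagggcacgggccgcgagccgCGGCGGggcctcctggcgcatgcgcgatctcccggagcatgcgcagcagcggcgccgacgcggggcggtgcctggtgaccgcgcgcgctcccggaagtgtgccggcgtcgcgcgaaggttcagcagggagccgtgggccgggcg
POLR1D (chr13:27620493-27620792, plus strand): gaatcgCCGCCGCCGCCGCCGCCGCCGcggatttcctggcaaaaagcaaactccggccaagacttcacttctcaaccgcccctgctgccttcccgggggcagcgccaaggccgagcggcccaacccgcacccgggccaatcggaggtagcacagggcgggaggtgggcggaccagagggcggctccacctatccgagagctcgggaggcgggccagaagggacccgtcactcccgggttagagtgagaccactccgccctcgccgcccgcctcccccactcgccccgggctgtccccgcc

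The SNAPC1 window held no run of 2 or more CGG triplets on either strand. The GTF3A window held 1 run of 2. POLR1D, which encodes a small subunit shared by Pol I and Pol III, carried 7 CCG triplets in a row that began 244 bases before its start. Promoter windows were found for 88 of the genes, and 9 of them (10.2%) had at least 3 CGG triplets in a row on either strand, against 10.7% of the 7930 windows of all tested genes and 5.71% of all 27305 windows. The other 8 genes with such a run were MED13L with 5 triplets, POLR2E and POLR3C with 4, and MED15, MED26, POLR2H, TAF4 and TAF5L with 3. None of these 9 genes was called in total or new RNA by edgeR, where MED15 was the 1 gene of the 9 with an unadjusted p under 0.05 in total RNA and DESeq2 called none of them. A match to CGG letters describes the window and shows no binding.

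Total RNA of the transcription machinery changed in a single gene by edgeR's test. SNAPC1 fell to 21.8% of its siControl level in siCGGBP1, and no polymerase, TFIID, TFIIH or Mediator gene passed the test. A gene was called when its adjusted p was under 0.05 and its absolute log2 fold change above 1, with edgeR's quasi-likelihood test fitted over all 10138 tested genes and Benjamini-Hochberg adjustment over all of them. On that rule 1 of the 107 tested genes was lower, where 0.957% of all tested genes were, and 0 were higher, where 0.444% were. On the adjusted p alone the same gene was lower (1.21% of all tested genes) and 0 were higher (0.543%). At an unadjusted p under 0.05, edgeR gave 9 lower and 6 higher genes of the 107, against 8.43% lower and 7.95% higher over all tested genes. DESeq2 called 0 higher genes (1.64% of all tested genes) and 2 lower ones (2.02%) past the 2-fold rule, SNAPC1 and GTF3A. On its adjusted p alone DESeq2 added GTF2F2 to the lower genes (3.50%) and left 0 higher (2.60%).

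**Figure D1:**
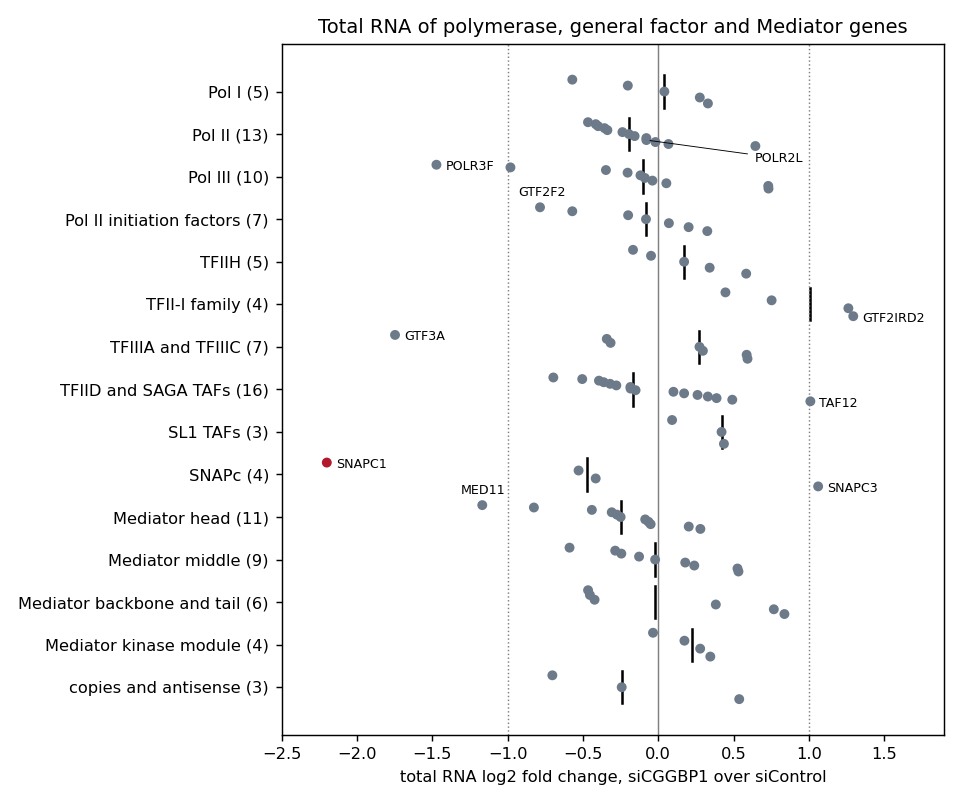
Total RNA log2 fold change (siCGGBP1 over siControl, x axis) of the 107 tested genes, 1 point a gene, with the complexes on the y axis and the number of tested genes in brackets. Black bars are medians, dotted lines mark a log2 fold change of -1 and 1, and the red point is the 1 gene with an adjusted p under 0.05, SNAPC1 at -2.20. POLR2L, at -0.08, sits on the median of all 107.

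The median log2 fold change of the 107 genes was -0.08, beside 0.00 for all tested genes, and 61 of the 107 were below 0. The 3 siControl values lay wholly above the 3 siCGGBP1 values in 13 genes (12.3% of all tested genes did so) and wholly below them in 9 (12.0%). The first count is near the share over all tested genes, and the second is below it. Medians by complex ran from -0.47 in SNAPc, where 4 genes were tested, to 1.01 in the TFII-I family, also with 4. The complexes with 10 or more tested genes had medians of -0.19 (Pol II), -0.10 (Pol III), -0.17 (TFIID and SAGA TAFs) and -0.25 (Mediator head).

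SNAPC1, the subunit known as SNAP43, stood alone within its own complex. It had 3951, 3207 and 2016 normalised reads in the siControl replicates and 744, 611 and 642 in the siCGGBP1 replicates. The lowest siControl library was thus well above the highest siCGGBP1 library, and the siCGGBP1 libraries were close to each other. The log2 fold change was -2.20 ± 0.26 (SE), edgeR adjusted p = 0.00181, the lowest of the 107 genes in both fold change and p. It was called in every alternative fit, with log2 fold changes from -2.42 to -1.97 when single libraries were left out. In siControl SNAPC1 was the third most abundant of the genes at 260 ± 85.5 CPM (counts scaled to the library total; SD, n = 3), after TAF1D and POLR2L. CPM of 3′ end reads is a scale with no correction for transcript length. In such bulk samples a loss of cells that express a gene and a lower level per cell cannot be told apart.

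The other SNAPc subunits did not follow SNAPC1. SNAPC3, the subunit SNAP50 that contacts DNA, had 195, 229 and 152 normalised reads in siControl and 260, 382 and 560 in siCGGBP1. All siCGGBP1 libraries were above all siControl libraries, and the log2 fold change was 1.06 ± 0.42 (SE), edgeR adjusted p = 0.229. SNAPC2 had a log2 fold change of -0.53 (edgeR adjusted p = 0.528) and SNAPC5 one of -0.41 (0.588), and both groups overlapped in each. SNAPC4, the large subunit with Myb repeats, reached 20 to 198 normalised reads and was not tested. Summed over the complex, SNAPc went from 4344 ± 1156 to 1909 ± 158 normalised reads with no overlap, while the sum without SNAPC1 was 1286 ± 292 in siControl and 1243 ± 204 in siCGGBP1 (SD, n = 3) and overlapped.

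**Figure D2:**
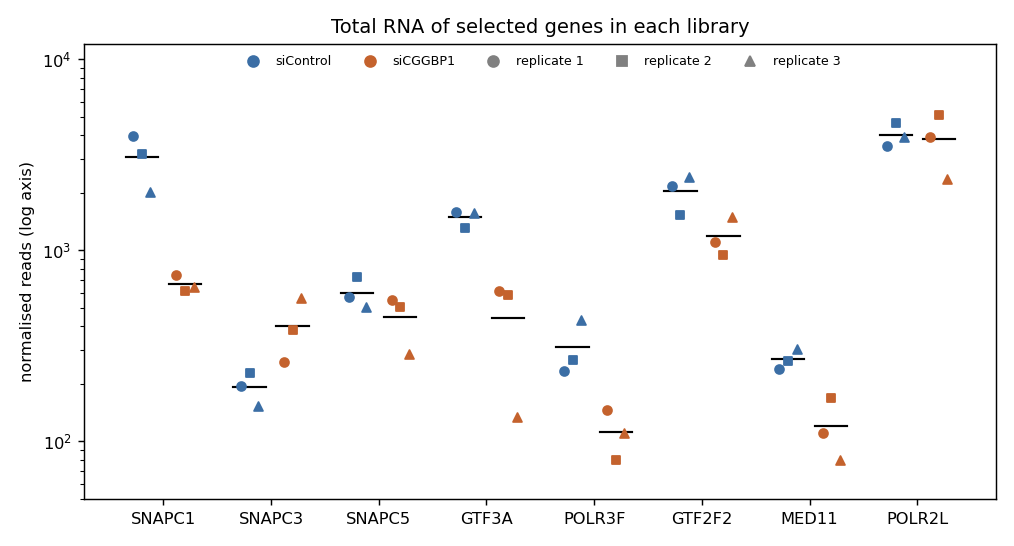
Normalised total reads (y axis, log scale) of 8 genes in each library, with siControl in blue, siCGGBP1 in orange, marker shape for the replicate number and black bars for group means. SNAPC1 lies between 2016 and 3951 in siControl and between 611 and 744 in siCGGBP1. GTF3A has 1 siCGGBP1 library at 134, and the POLR2L groups overlap.

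In the Pol III system, GTF3A came closest to the threshold after SNAPC1. GTF3A is TFIIIA, the zinc finger factor that recognises the 5S ribosomal RNA gene, and it had 1579, 1314 and 1564 normalised reads in siControl and 611, 584 and 134 in siCGGBP1. The groups were far apart, with siCGGBP1 replicate 3 lower than the other 2 by a wide margin. The log2 fold change was -1.75 ± 0.44 (SE), edgeR adjusted p = 0.0696. Without siCGGBP1 replicate 3 it was -1.30 with an adjusted p of 0.0182 in edgeR, and DESeq2 called it with all 6 libraries (adjusted p = 0.00193).

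TFIIIC, the assembly factor of transfer RNA and 5S genes, had 4 of 6 subunits above 0 and 2 below, and none passed the test. Its subunit GTF3C6 had 1495, 1230 and 925 normalised reads in siControl and 1707, 1793 and 2006 in siCGGBP1 (log2 fold change 0.59 ± 0.23 SE, edgeR adjusted p = 0.219). GTF3C1, the largest subunit, had a log2 fold change of 0.59 (edgeR adjusted p = 0.435), again without overlap. GTF3C3 (-0.34, edgeR adjusted p = 0.792) and GTF3C5 (-0.32, 0.626), both named after their values were seen, were the 2 below 0 and overlapped between groups. The summed reads of TFIIIC overlapped as well, at 4641 ± 333 in siControl and 5478 ± 1422 in siCGGBP1 (SD, n = 3). Over the 7 genes of TFIIIA and TFIIIC the median was 0.27. Of the 7, 3 were higher without overlap (12.0% of all tested genes were) and 1 was lower (12.3%). So few genes do not set this complex apart.

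Of the 10 tested Pol III subunits, 7 had a log2 fold change below 0, and the lowest was -1.47. POLR3F, a Pol III-specific subunit that acts in initiation, had 233, 267 and 433 normalised reads in siControl and 146, 80 and 111 in siCGGBP1. The groups did not overlap, and the log2 fold change was -1.47 ± 0.51 (SE), edgeR adjusted p = 0.165. POLR3K, a small subunit that takes part in termination, named here after its values were seen, had 519, 619 and 308 against 210, 237 and 286 (-0.98 ± 0.38 SE, edgeR adjusted p = 0.214). It passed the test when both libraries numbered 3 were left out. The catalytic subunits POLR3A (-0.20, edgeR adjusted p = 0.806) and POLR3B (-0.04, 0.984) overlapped between groups. Summed over Pol III, TFIIIA, TFIIIC and SNAPc, total reads went from 14161 ± 1570 to 11363 ± 1028 (SD, n = 3) without overlap, although the sums of Pol III alone and of TFIIIA and TFIIIC alone overlapped. Without SNAPC1 the same sum was 11103 ± 596 in siControl and 10697 ± 1069 in siCGGBP1 and overlapped too.

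In Pol II the subunits lay close together. Over 13 genes the log2 fold changes ran from -0.47 to 0.64, and 11 were below 0. POLR2A, the largest subunit that carries the C-terminal domain, had a log2 fold change of -0.19 ± 0.25 (SE; edgeR adjusted p = 0.768), and POLR2B, its catalytic partner, one of -0.40 ± 0.23 (0.415). POLR2J, which forms part of the assembly platform, was lowest at -0.47 (0.357) and POLR2G, a stalk subunit, highest at 0.64 (0.307). Neither of the last pair overlapped between groups, with POLR2G at 880, 978 and 445 normalised reads in siControl and 1273, 1058 and 1271 in siCGGBP1. Reads of POLR2J could be split with its copies POLR2J2 and POLR2J3, which makes its level uncertain.

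POLR2L, a small subunit common to all 3 polymerases and known as RPB10, was placed in the middle of the list by its total RNA. It had 3495, 4605 and 3932 normalised reads in siControl and 3925, 5122 and 2350 in siCGGBP1, so the groups overlapped fully. The log2 fold change of -0.08 ± 0.25 (SE; edgeR adjusted p = 0.919) ranked 54 of 107, which is the median gene, and its sign turned positive (0.18) without siCGGBP1 replicate 3. POLR2L was also the second most abundant of the genes in siControl, at 340 ± 53.2 CPM (SD, n = 3). The 5 shared subunits together had log2 fold changes between -0.41 and -0.02, all below 0, with summed reads of 10547 ± 693 in siControl and 9608 ± 1108 in siCGGBP1 that overlapped.

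In Pol I, POLR1E, a subunit of the Pol I-specific heterodimer, had 1266, 1128 and 1511 normalised reads in siControl and 905, 786 and 939 in siCGGBP1. The groups did not overlap, with a log2 fold change of -0.57 ± 0.23 (SE), edgeR adjusted p = 0.246. The catalytic subunits POLR1A (0.28, edgeR adjusted p = 0.652) and POLR1B (-0.20, 0.818) and the shared subunit POLR1D (0.33, 0.61) differed less than that. The SL1 factors that bring Pol I to the ribosomal DNA promoter were above 0 in all 3 tested genes, at 0.09 for TAF1B, 0.42 for TAF1D and 0.44 for TAF1C, with overlapping groups. TAF1D was the most abundant gene of all, at 3777 to 4599 normalised reads in siControl and 4209 to 6927 in siCGGBP1.

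Among the Pol II initiation factors, GTF2F2 differed most. It encodes the small subunit of TFIIF, which accompanies Pol II into the promoter complex, and had 2159, 1535 and 2418 normalised reads in siControl and 1104, 949 and 1493 in siCGGBP1. The highest siCGGBP1 library was just below the lowest siControl library. The log2 fold change was -0.78 ± 0.25 (SE), edgeR adjusted p = 0.135, and DESeq2 gave an adjusted p of 0.0434. GTF2B, which is TFIIB, had -0.08 ± 0.47 (edgeR adjusted p = 0.956) and GTF2E2, a subunit of TFIIE, had 0.33 (0.621). The 5 tested TFIIH genes lay between GTF2H2 at -0.17 and GTF2H4 at 0.58, all with overlap, and GTF2H2 shares reads with its copy GTF2H2C.

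All 4 genes of the TFII-I family were above 0, of which GTF2IRD2 and its copy GTF2IRD2B may share reads and are not independent. GTF2I, a multifunctional factor that binds initiator elements, had 445, 544 and 666 normalised reads in siControl and 891, 1003 and 897 in siCGGBP1 (0.75 ± 0.27 SE, edgeR adjusted p = 0.175). GTF2IRD2 had 108, 122 and 102 against 205, 187 and 423 (1.29 ± 0.54 SE, edgeR adjusted p = 0.251), the highest fold change of the 107 genes. Both were higher without overlap. GTF2IRD1 had 0.45 with overlap, and -0.089 without both libraries numbered 3. GTF2IRD2B had 54, 49 and 176 against 159, 174 and 339 (1.26, edgeR adjusted p = 0.387) with overlap, and the reads of both copies are uncertain. The summed reads of the family went from 1099 ± 150 to 1894 ± 322 without overlap, and from 1006.1 ± 159 to 1670.3 ± 222 without GTF2IRD2B (SD, n = 3), again without overlap. No member passed the test, and the median of the family without GTF2IRD2B was 0.75.

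TFIID and SAGA TAFs spanned -0.70 to 1.01 over 16 tested genes, 9 below and 7 above 0. TAF1, the largest TFIID subunit, had a log2 fold change of -0.32 (edgeR adjusted p = 0.77). TAF2 was lowest, at 1748, 892 and 1224 normalised reads against 1214, 752 and 421 (-0.70 ± 0.37 SE, edgeR adjusted p = 0.372). TAF12, a histone-fold TAF of TFIID and SAGA, was highest, at 247, 145 and 307 against 445, 285 and 677 (1.01 ± 0.43 SE, edgeR adjusted p = 0.268). Both pairs of groups overlapped.

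Mediator had 30 tested genes, of which 18 were below 0, with a median of -0.06. In the head module, which contacts Pol II, MED11 had 239, 262 and 306 normalised reads in siControl and 110, 169 and 80 in siCGGBP1. Its groups did not overlap (-1.17 ± 0.52 SE, edgeR adjusted p = 0.284), and MED29, named after its values were seen, did not overlap either (-0.83, 0.243). In the middle module MED1, the subunit that binds nuclear receptors, had 1818, 1559 and 2039 against 1174, 1398 and 1030 (-0.59 ± 0.22 SE, edgeR adjusted p = 0.203). The backbone subunit MED14 (-0.45, edgeR adjusted p = 0.691), the tail subunits MED24 (-0.47, 0.524) and MED23 (0.84, 0.483), and the kinase module subunit MED12 (-0.03, 0.975) overlapped between groups. The kinase module as a whole lay between -0.03 (MED12) and 0.35 (MED12L) over its 4 genes. The highest values of the head and middle modules were 0.28 in MED28 and 0.53 in MED9, again with overlap.

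New RNA passed the test in 1 gene, POLR2L. New reads are the read count times the most probable new-to-total ratio, and were compared with the same edgeR test. For single genes they are printed before normalisation, whereas sums over complexes and statements on overlap use normalised new reads. Of the 107 genes 1 was lower, where 0.0197% of all tested genes were, and 0 were higher, where 0.0296% were. At an unadjusted p under 0.05 edgeR gave 5 lower genes (POLR2L, SNAPC1, MED16, TAF13 and TAF1B) and 1 higher gene (POLR2F), against 1.91% lower and 1.23% higher over all tested genes. DESeq2 called POLR2L lower (0.158% of all tested genes) and POLR2F higher (0.109%), and limma on log2 values called 0 in either direction. New reads did not overlap between groups in 5 lower genes (4.50% of all tested genes) and in 4 higher ones (2.88%). The median log2 fold change was -0.01, beside -0.03 over all tested genes.

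**Figure D3:**
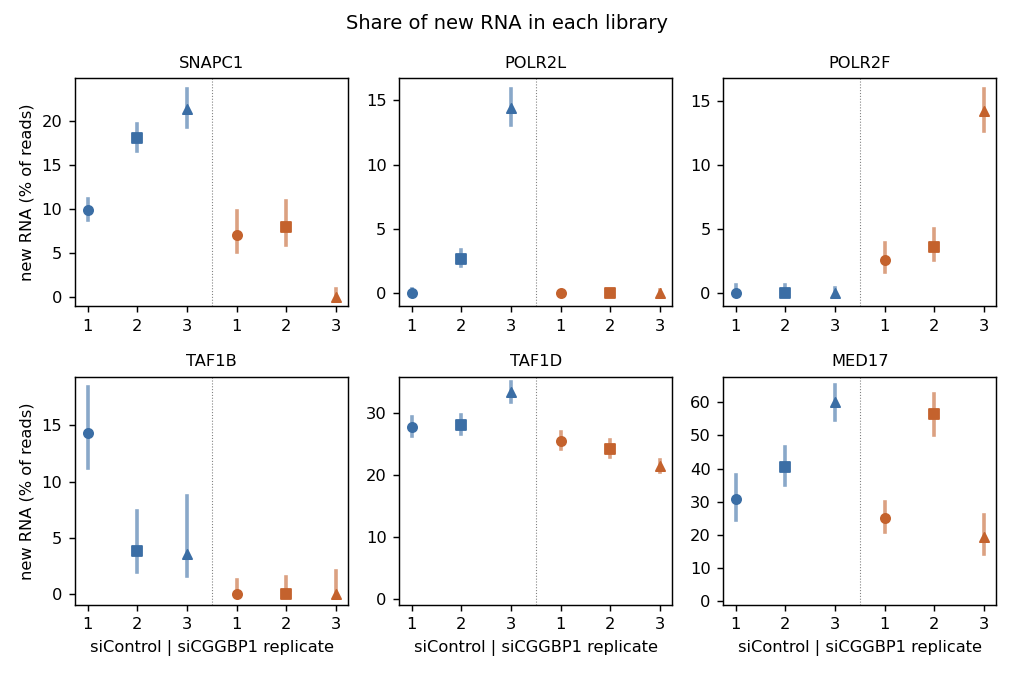
Share of new RNA (y axis, percent of reads) of 6 genes in each library, with siControl replicates 1 to 3 in blue on the left and siCGGBP1 replicates in orange on the right. Points are the most probable values and bars run from the 5% to the 95% credible limit, which can lie above a most probable value of 0. POLR2L reaches 14.4% in siControl replicate 3 and 0% in all siCGGBP1 replicates, and TAF1D stays between 21.4% and 33.3% in all 6.

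New reads of POLR2L numbered 0, 128 and 561 in the control replicates, and no siCGGBP1 replicate had any (0, 0 and 0). Its share of new RNA was 0%, 2.65% (credible limits 2.12% to 3.33%) and 14.4% (13.0% to 15.9%) in siControl, so 1 library carried most of it and another carried none. The edgeR adjusted p was 0.00118, and it was 1 without siControl replicate 3, 0.461 without both libraries numbered 3 and 0.148 with the replicate block. A new read count of 0 is here a most probable value of the model and no count of reads, so no fold is given against it.

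The conversions behind these shares were 35, 153 and 487 in siControl and 13, 45 and 5 in siCGGBP1. Per 100 covered T they were 0.0548, 0.148 and 0.571 against 0.0176, 0.0409 and 0.00863, with 0.0136 in the library without 4sU. The rates did not overlap, but the lowest siControl rate and the highest siCGGBP1 rate were close, and the conversion counts of those libraries crossed (35 and 45). Tested as counts, conversions of POLR2L had a log2 fold change of -3.41 with an edgeR adjusted p of 0.347, and limma on log2 values gave 0.797. In the siControl library with 200 µM 4sU its share was 2.04% (1.88% to 3.50%).

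SNAPC1 had new reads in all siControl libraries, and its new reads were lower in every siCGGBP1 library. They were 336, 606 and 427 in siControl and 46, 49 and 0 in siCGGBP1, a log2 fold change of -3.78 with an edgeR adjusted p of 0.0693. Its share of new RNA was 9.87%, 18.0% and 21.4% in siControl and 7.09%, 8.02% and 0% in siCGGBP1, so the share was lower without overlap as well as the level. Whether new RNA fell by more than total RNA was not tested.

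The same gene passed the test on several other measures of new RNA. With conversion counts the edgeR adjusted p was 0.00107, with the posterior mean ratio 0.0229, and without both libraries numbered 3 it was 0.00034, while DESeq2 gave 0.457. Conversions of SNAPC1 per 100 covered T were 0.466, 0.789 and 0.629 in siControl and 0.31, 0.345 and 0.0284 in siCGGBP1. The library without 4sU showed 0.129 at this gene, above the 0.0685 of all genes described there, with 24 reads that carried 2 or more conversions. In the 200 µM library the share of new RNA was 13.5% (11.7% to 15.5%).

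The shared subunits POLR2L and POLR2F had opposite patterns. For POLR2F, known as RPB6, the new reads were 0, 0 and 0 under siControl against 26, 45 and 304 under siCGGBP1, again listed at 0 by the model in a whole group. edgeR gave an adjusted p of 0.859, or 1 without siCGGBP1 replicate 3, DESeq2 gave 0.0143, and total reads overlapped (log2 fold change -0.16). Conversions of POLR2F, which were 36, 19 and 4 in siControl and 39, 85 and 342 in siCGGBP1, had a log2 fold change of 2.67 when tested as counts (edgeR adjusted p = 0.889). POLR2K, another shared subunit, had 22, 75 and 93 against 0, 11 and 0 (edgeR adjusted p = 0.993).

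In SL1, TAF1B gave 62, 14 and 6 new reads under siControl against 0, 0 and 0 under siCGGBP1 (edgeR adjusted p = 0.993). MED11 had 10, 40 and 100 against 0, 10 and 0 (edgeR adjusted p = 1), the same direction as its total RNA. Higher new reads without overlap were seen in SNAPC3 (18, 16 and 0 against 82, 22 and 146), in TAF5 (7, 0 and 0 against 72, 16 and 12) and in POLR1A (8, 0 and 0 against 23, 12 and 41), each with an edgeR adjusted p of 1. That the first 2 replicates alone did not overlap in these 3 genes follows from this and is no further check. The 2 other genes with an unadjusted p under 0.05, both named after their values were seen, rested on siControl replicate 3: MED16 had 184 new reads there and 0 in the other 5 libraries, and TAF13 had 645 there and at most 80 elsewhere.

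**Figure D4:**
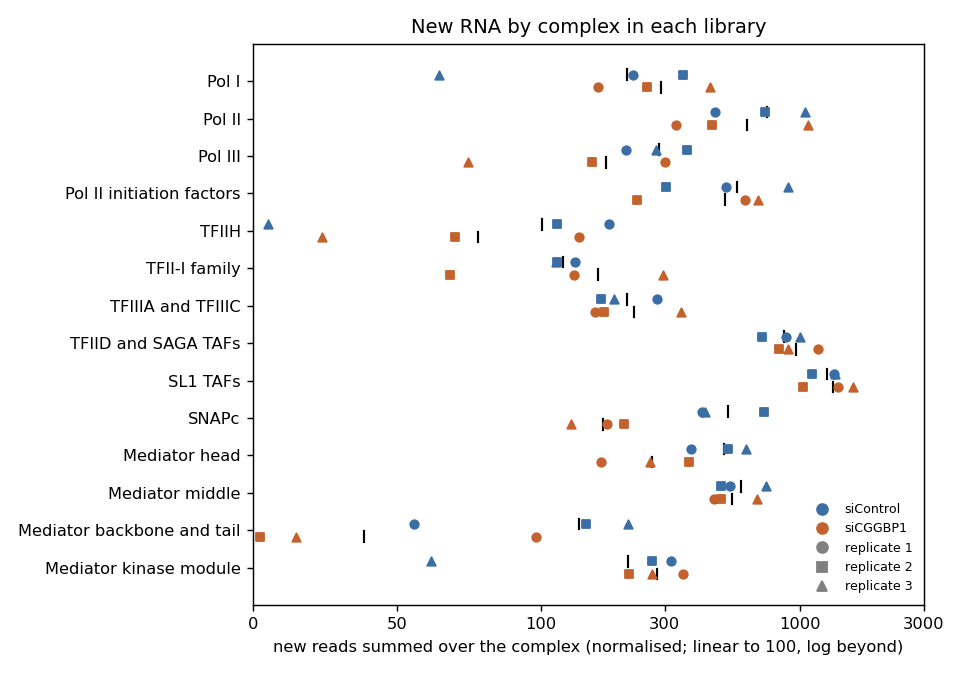
New reads summed over each complex after normalisation (x axis, linear to 100 and logarithmic beyond) in each library, with siControl in blue, siCGGBP1 in orange, marker shape for the replicate number and black bars for group means. SNAPc and the Mediator head are the rows where all siControl points lie above all siCGGBP1 points, and SL1 has the most new reads.

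Summed new reads were lower without overlap in SNAPc, at 420, 726 and 431 in siControl and 180, 208 and 131 in siCGGBP1. Without SNAPC1 the sum was 30, 148 and 0 against 127, 159 and 131, which overlapped and was higher on average in siCGGBP1. The Mediator head had 378, 525 and 618 against 171, 371 and 263, and all of Mediator had 1288, 1438 and 1638 against 1085, 1088 and 1224, again without overlap. The middle module, the backbone and tail, and the kinase module each overlapped on their own. Where all replicates do not overlap, replicates 1 and 2 alone cannot overlap either, so leaving out the libraries numbered 3 gives no further check here. Sums over Pol II (748 ± 285 against 622 ± 399; SD, n = 3), Pol I and the TAFs overlapped.

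The share of RNA made within the 60 min of labelling differed widely between genes. The median share of new RNA over the tested genes of these complexes was 4.79%, 4.96% and 0% in siControl and 2.82%, 2.94% and 0% in siCGGBP1. The ratio was listed at 0 in 27, 25 and 61 of the 107 genes in siControl and in 36, 36 and 56 in siCGGBP1. Over all tested genes the corresponding medians were 3.82%, 4.74% and 0%, and 3.37%, 2.78% and 0%. For each gene, the median over the 3 siControl replicates was 0 in 31 genes and over the siCGGBP1 replicates in 40.

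The genes with the highest siControl share belong to several complexes. TAF1D, at 27.7%, 28.0% and 33.3% in siControl and 25.5%, 24.2% and 21.4% in siCGGBP1, had 1027 to 1805 new reads in each library. The siCGGBP1 shares all lay below the siControl shares, while the new reads themselves overlapped between groups. MED17, the scaffold of the Mediator head, had 30.8%, 40.5% and 59.9% against 25.1%, 56.4% and 19.3%.

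MED26, the Mediator subunit that brings elongation factors, had 41.1%, 27.1% and 100% in siControl and 84.3%, 23.9% and 100% in siCGGBP1, on 102 to 255 normalised reads. POLR3F had 27.4%, 36.5% and 0% in siControl and 13.8%, 6.07% and 0.92% in siCGGBP1, and TAF1A, an SL1 subunit below the level tested, reached 67.2% on 39 normalised reads in siControl replicate 2. The 2 libraries numbered 3 thus gave both 0 and 100% within this small set of genes. Of the catalytic subunits of Pol II, POLR2A had 2.38%, 3.25% and 0% and POLR2B 3.13%, 5.53% and 4.46% in siControl. Their medians lay on either side of the median of 2.84% over the tested genes of these complexes. MED12 was listed at 0 in all 6 libraries.

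**Figure D5:**
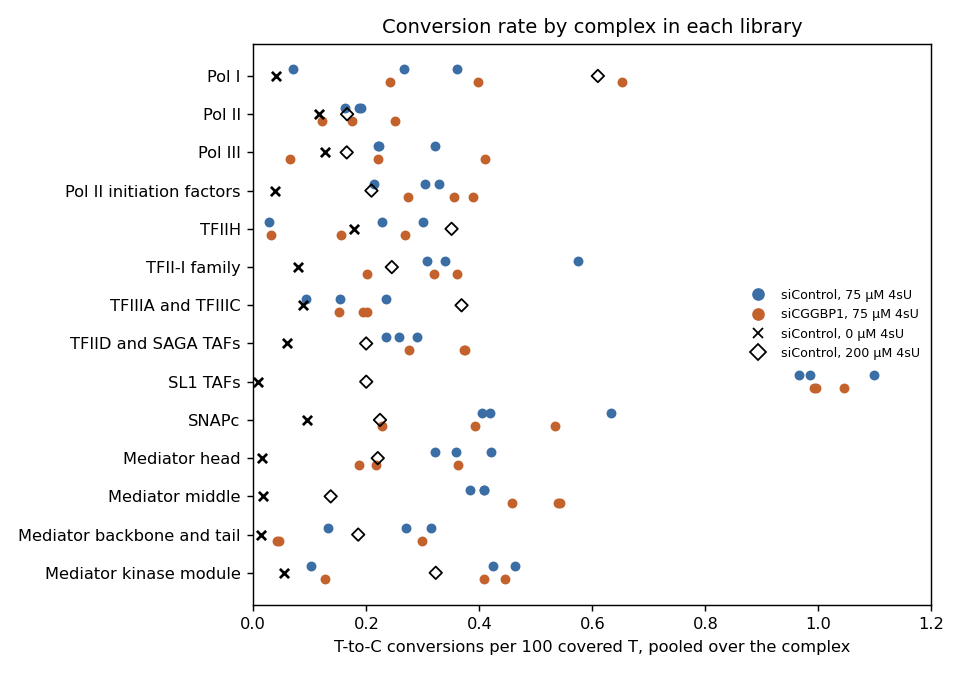
T-to-C conversions per 100 covered T (x axis), pooled over the genes of each complex, in each library, with siControl in blue, siCGGBP1 in orange, crosses for siControl without 4sU and open diamonds for siControl with 200 µM 4sU. SL1 lies between 0.966 and 1.10 at 75 µM and at 0.00883 without 4sU, and the 2 groups overlap in every complex plotted except Mediator middle, where the siCGGBP1 points are the higher ones.

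Conversions are counted before any model, and their rate depends on how much 4sU was built in as well as on the share of new RNA. Pooled over all 115 genes they were 0.329, 0.337 and 0.278 per 100 covered T in siControl and 0.343, 0.331 and 0.335 in siCGGBP1, against 0.0685 in the library without 4sU. The groups overlapped, and all 6 lay above that background. SL1 had the highest rate (0.966 to 1.10 over the 6 libraries), with TAF1D as its most abundant member. Pol II was among the lowest (0.122 to 0.251), against its own background of 0.116. Its lowest rate, in siCGGBP1 replicate 1, was close to that background, and its highest, in siCGGBP1 replicate 3, was well above it. In TFIIH the background of 0.178 was above the rates of both libraries numbered 3 (0.0278 and 0.031) and of siCGGBP1 replicate 2 (0.155). New RNA of TFIIH was thus not detectable above background in these 3 libraries. The same held for Pol III in siCGGBP1 replicate 3 (0.0649 against a background of 0.128). TFIIIA and TFIIIC in siControl replicate 3 lay close to background (0.0939 against 0.0883).

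No gene of the same processes under another name passed the test. Of 41 such genes, 40 were tested, covering TBP, the TFIIH and Mediator kinases, other Pol I and Pol III factors, pausing and elongation factors and mitochondrial transcription. edgeR gave 0 with an adjusted p under 0.05 in either direction, 4 with an unadjusted p under 0.05 (16.4% of all tested genes), and 0 in new RNA, where 2 had an unadjusted p under 0.05 (3.15%). The 4 were CDK19 and NELFCD, which were higher, and CD3EAP and TFAM, which were lower, all named after their values were seen. DESeq2 called NELFCD (log2 fold change 0.69) and TFAM (-0.80) in total RNA, where it called 6.11% of all tested genes on the adjusted p alone, and 0 in new RNA (0.266%), and the median log2 fold change of the 40 was -0.13.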

How the data were processed

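Total RNA of U-2OS Tet-ON cells was prepared as QuantSeq 3′ end libraries, with 3 replicates of siControl and 3 of siCGGBP1 at 75 µM 4sU. Single siControl libraries at 0 µM and at 200 µM entered no test. The authors removed ribosomal reads with Bowtie2 (2.3.0) and mapped with STAR (2.5.3a) to the human genome with Ensembl annotation, versions as in the submitters' processing notes. The deposited expected counts (reads, T-to-C conversions, covered T and reads with at least 2 conversions) come from GRAND-SLAM, are not normalized, and are fractional where a read matched several genes. The authors' new-to-total ratio, deposited as a fraction, is the maximum a posteriori value, with a posterior mean and credible limits of 5% and 95%. A percent of new RNA here is that fraction in percent. No removal of PCR duplicates is named for these libraries and no molecular identifiers are given, so limits cover counting error only. Spike-in RNA is described in the protocol but is no row of the values, so all levels are relative to the library total.

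A gene was tested if 3 or more of the 6 libraries held 100 or more of its reads, which kept 10138 of 18388. Reads were rounded and fitted with edgeR 4.0.16 (TMM, quasi-likelihood F test, Benjamini-Hochberg) in R 4.3.3, and new reads (reads times ratio, rounded) were fitted the same way with the total reads' library sizes. Normalised reads are reads divided by the TMM-scaled library size relative to its mean. SE was taken from the F statistic, as the size of the log2 fold change over its root. Replicate numbers are given in the titles, but no label says that replicates came from separate cultures, so p-values measure only the spread between these libraries. The study's own fits use DESeq2, run here (1.42.0) as an alternative, with limma 3.58.1 for new RNA. The fits were run on simulated counts before use. Those counts varied less between libraries than the real ones, above all for new RNA. The simulation therefore does not show how well the fits perform on these data.

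The symbol rule for the members uses no value, but members, complexes and lists were chosen with earlier results of these data known. Named genes were POLR2L and SNAPC1, members with an adjusted p under 0.05, the 3 with the lowest p in each direction and fit that moved alike in all 9 pairs of libraries, the highest and lowest of each complex, 13 core subunits, and the 5 with the highest siControl share of new RNA. A gene that this rule names and a promoter sequence are not reported here. Promoters were RefSeq windows (GRCh38.p14), searched for CGG repeats on both strands.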

Additional observations from a re-analysis of the deposited data

Results flagged for a closer look

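The siControl library with 200 µM 4sU entered no comparison, and it was picked out because it carried a labelling signal above the library without 4sU. Over the 115 polymerase, general factor and Mediator genes the conversion rate was 0.244 per 100 covered T there, compared to 0.0685 without 4sU and 0.278 to 0.343 in the 6 libraries with 75 µM. The rate at 200 µM was therefore below that of every 75 µM library, from 1 library without a replicate. The estimated share of new RNA in the reads of these genes went the other way, at 10.2% at 200 µM against 5.84% to 8.42% in the 75 µM libraries. By complex the conversion rate at 200 µM ranged from 0.137 in Mediator middle to 0.61 in Pol I. SL1 showed 0.20 at 200 µM, against 0.966 to 1.10 at 75 µM, and TAF1D had a share of new RNA of 8.13% there, against 27.7% to 33.3% in the 75 µM siControl libraries.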

How the results depend on the processing

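SNAPC1 stayed called in total RNA under every alternative run. The number of lower genes in total RNA past the 2-fold rule was 2 with DESeq2, with no filter on low counts and at an adjusted p under 0.1 (SNAPC1 and GTF3A each time), and 1 to 3 when libraries were left out, with POLR3K as the 3rd gene without both libraries numbered 3. On the adjusted p alone it was 3 with DESeq2 and with no filter (GTF2F2 added), 2 at an adjusted p under 0.1, and 1 to 3 when libraries were left out. In new RNA, DESeq2 called 1 higher gene (POLR2F). The lower genes in new RNA numbered 0 with limma on log2 values, 2 with the posterior mean ratio and at an adjusted p under 0.1 (POLR2L and SNAPC1), and 0 or 1 when libraries were left out. With conversion counts the 1 lower gene was SNAPC1 and not POLR2L. The median total RNA log2 fold change lay between -0.10 and -0.0016 when libraries were left out, the value nearest 0 being without siControl replicate 3. The 2 libraries numbered 3 were left out together as an alternative chosen after seeing the data. The cause of these shifts was not tested.

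A replicate block was fitted because the groups share replicate numbers. Same-numbered libraries deviated together weakly (correlations of 0.101, 0.16 and 0.0786, each the highest for its library). All correlations between differently numbered libraries were negative, from -0.0936 to -0.0137. Deviations were taken from each group's own mean, so positive values for same-numbered libraries force the others to be negative on balance. The negative values are thus no separate result. Both libraries numbered 3 also shared the high number of ratios listed at 0. A shift common to libraries of 1 number is therefore possible, and its cause was not tested. The main fit left the numbers out, and the block is given beside it. With the replicate block 1 lower gene was called in total RNA and 0 in new RNA, where POLR2L had an edgeR adjusted p of 0.148. Under the block the total RNA log2 fold changes of GTF2B (0.0664) and MED12 (0.0308) turned positive.

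Signs of several genes also turned when libraries were left out, as the ranges of total RNA log2 fold changes show: GTF2B -0.42 to 0.59, GTF2H2 -0.29 to 0.0045, GTF2IRD1 -0.089 to 0.88, MED9 -0.18 to 0.97, MED12 -0.23 to 0.32, MED17 -0.47 to 0.50, MED26 -0.45 to 0.17, POLR1D -0.0552 to 0.46, POLR2F -0.41 to 0.00996, POLR2L -0.36 to 0.18, POLR3B -0.34 to 0.15, TAF1B -0.21 to 0.48 and TAF5 -0.11 to 1.06. Not all of these genes were near 0 in the main fit, where MED9 had 0.53 and GTF2IRD1 0.45. None of these genes passed the test in total RNA.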
